A study of Mus musculus with 16 samples.

Results

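The mouse genome encodes 4 T-cell factor/lymphoid enhancer factor (Tcf/Lef) genes, Lef1, Tcf7, Tcf7l1 and Tcf7l2, and all 4 were followed through cultured mouse pluripotent cells by bulk RNA sequencing. They were chosen by name, as the complete family, and make up 4 of the 34042 genes in the count table. The 16 libraries fall into 4 groups by culture medium. ES cells of the line E14IV-C, grown in 2iL, gave 4 libraries from passages 12, 13, 15 and 20. Formative stem (FS) cells, grown in A3XR, gave 6 libraries, from the line 5ar1 at passages 10, 12 and 14 and from the line 5ar3 at passages 4, 5 and 12. Epiblast stem cells gave 3 libraries of the line AFX6 in AFX (EpiSC_AFX, passages 5, 8 and 12) and 3 of the line AF32 in AF (EpiSC_AF, passages 13, 14 and 15). ES cells stand for the naive state, FS cells for the formative state and both EpiSC groups for the primed state. The labels name no genetic modification in any group. Replicates are passages of a line, so the p-values measure the spread between passages and, through FS, also that between its lines. With 1 mean per group, the spread of each gene was estimated over all groups together. The spread between the FS lines therefore also enters the comparisons without FS. FS alone has more than 1 line, and for the other groups line and medium cannot be told apart.

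Tcf/Lef proteins carry an HMG box that binds Wnt-responsive DNA sites. When Wnt signalling stabilises β-catenin, a Tcf/Lef protein bound to β-catenin activates its target genes, and without β-catenin it recruits Groucho/TLE corepressors and represses them. In ES cells Tcf7l1 acts mainly as a repressor, with Esrrb and Nanog among its targets, while Tcf7 and Lef1 act mainly as activators and Tcf7l2 can do both. 2iL contains an inhibitor of GSK3, which stabilises β-catenin, a MEK inhibitor and LIF. The X in the media names is the tankyrase inhibitor XAV939, which lowers Wnt/β-catenin signalling, A is activin, F is FGF2 and R is a retinoic acid receptor inverse agonist. The comparisons ask which of the 4 paralogs differ between the naive, formative and primed cultures, and whether their balance within a library does.

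In the annotation used (GENCODE mouse release 21, build GRCm38), Lef1 (ENSMUSG00000027985) lies at chr3:131110471-131224356 on the plus strand and Tcf7l2 (ENSMUSG00000024985) at chr19:55741820-55933654 on the plus strand. Tcf7 (ENSMUSG00000000782) lies at chr11:52252371-52283014 and Tcf7l1 (ENSMUSG00000055799) at chr6:72626378-72789254, both on the minus strand. Exons of Gm43352 overlap Lef1 on the opposite strand, with 0 to 13 counts per library, and exons of Gm15401 overlap Tcf7l1 in the same way, with 0 to 4 counts. Neither Tcf7 nor Tcf7l2 overlaps an exon of another gene. The longest identical run between transcripts of different family members was 14 to 23 bases, so reads of one paralog have little sequence in common with another.

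RefSeq lists 9 transcription start windows for the 4 genes, each with 250 bases before the start and 50 after it. Because Tcf/Lef factors can bind near their own genes, these windows were searched on both strands for 2 forms of the Tcf/Lef core motif, CTTTGAT and CTTTGTT. 1 of the 9 windows held a match, at an internal start of Tcf7l2. Among all 32851 RefSeq windows, 3.73% held the first form, 5.85% the second and 9.33% either. Printed first are the 250 bases before the first listed start of Lef1, the gene with the largest difference between the groups, at chr3:131110047-131110296 (GRCm38.p6, plus strand), which held no match and overlap an exon of Gm43352. Printed second are the 250 bases before the internal start of Tcf7l2, at chr19:55895071-55895320 (GRCm38.p6, plus strand), which lie inside the gene, overlap no annotated exon and hold the single match, in capitals.
Lef1: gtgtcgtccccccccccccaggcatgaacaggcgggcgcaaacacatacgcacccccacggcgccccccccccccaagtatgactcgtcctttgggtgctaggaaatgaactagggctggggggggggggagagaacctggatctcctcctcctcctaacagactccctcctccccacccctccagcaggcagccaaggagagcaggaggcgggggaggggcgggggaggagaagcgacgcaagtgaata
Tcf7l2: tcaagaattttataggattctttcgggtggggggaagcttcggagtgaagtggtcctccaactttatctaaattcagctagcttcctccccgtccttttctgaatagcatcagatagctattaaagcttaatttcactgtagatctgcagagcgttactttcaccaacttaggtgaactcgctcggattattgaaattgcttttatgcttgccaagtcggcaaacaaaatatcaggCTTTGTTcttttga
A match describes the letters of the window, and binding was not measured here.

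Total counts ranged from 22069338 to 33290250 per library. The mitochondrial rRNA gene mt-Rnr2 took 38.1% of the counts in ES replicate 1, the passage 12 library, against 9.96% to 25.0% in the other 15 libraries. Summed over 5 naive marker genes, ES libraries reached 2169 to 3414 CPM (read counts scaled to library size by edgeR's TMM) and the other libraries 3.39 to 12.6 CPM. The sum of 5 formative and primed markers was 45.7 to 119 CPM in ES and 937 to 2368 CPM elsewhere. Markers of other cell types also differed between groups. The sum of 6 streak and endoderm markers was 198 to 463 CPM in EpiSC_AF and at most 68.6 CPM in any other group, and the sum of 7 fibroblast markers rose from at most 1.11 CPM in ES, where Dcn was listed at 0 in every library, to between 12.3 and 79.4 CPM in the other groups. The sum of 5 neural markers was 64.6 to 130 CPM in FS, 13.96 to 69.4 CPM in ES and 19.6 to 39.0 CPM in the EpiSC groups, and that of 5 trophoblast markers was 50.5 to 65.7 CPM in ES and at most 17.9 CPM elsewhere. Most of the trophoblast sum in ES was Tfap2c, at a mean of 52.4 CPM. Gata3, Krt7 and Ascl2 went the other way and were called higher in EpiSC_AF than in ES in edgeR. Most of the neural sum was Tubb3, at means of 35.0 CPM in ES, 77.8 in FS, 30.3 in EpiSC_AFX and 20.6 in EpiSC_AF. Against ES, edgeR called Pax6 and Neurog2 higher in EpiSC_AF and Neurod1 higher in EpiSC_AFX, and no neural marker lower in either. The part of cells of other types in the results on the Tcf/Lef genes was not tested, and in bulk RNA fewer cells of a type and less RNA per cell cannot be told apart.

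Lef1 was the member that separated the naive cells from all other cells. It was measured at 1.45, 1.90, 3.23 and 2.98 CPM in ES replicates 1 to 4. In FS its lowest, median and highest values were 8.55, 23.5 and 37.7 CPM. It reached 28.2, 25.4 and 21.5 CPM in EpiSC_AFX and 32.1, 34.7 and 21.3 CPM in EpiSC_AF. All 12 non-naive libraries therefore lay above all 4 ES libraries, whereas FS, EpiSC_AFX and EpiSC_AF overlapped one another.

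Lef1 was 9.32-fold higher in FS than in ES, 3.22 on the log2 scale with a standard error (SE) of 0.40 and an adjusted p of 2.00e-06 in edgeR's quasi-likelihood test. It was 10.3-fold higher in EpiSC_AFX than in ES (log2 fold change 3.37, SE 0.43, edgeR adjusted p = 4.13e-06) and 12.1-fold higher in EpiSC_AF (3.60, SE 0.43, edgeR adjusted p = 1.98e-06). With passage as a covariate the log2 fold changes were 3.89, 4.38 and 3.81 in the same order, all called in edgeR. These comparisons share the ES libraries. The naive and other cultures differ in many genes. In FS against ES, 62.8% of the 18555 tested genes passed an adjusted p of 0.05, and 3 of the 4 Tcf/Lef genes did. The background was 54.7% in EpiSC_AFX against ES, where 1 of the 4 passed, and 56.7% in EpiSC_AF against ES, where 2 passed. By size, 10.3% of the tested genes had a log2 fold change at least as high as that of Lef1 in FS against ES, 8.39% in EpiSC_AFX against ES and 8.31% in EpiSC_AF against ES.

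Among the non-naive groups, no difference in Lef1 was detected. Its log2 fold change was -0.15 in FS against EpiSC_AFX, with a 95% interval of -0.91 to 0.62, and -0.38 in FS against EpiSC_AF (-1.14 to 0.38). In EpiSC_AFX against EpiSC_AF it was -0.23 (-1.12 to 0.66). The order of the group means, ES, FS, EpiSC_AFX and EpiSC_AF from low to high, thus holds beyond the spread only for its first step.

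**Figure D1:**
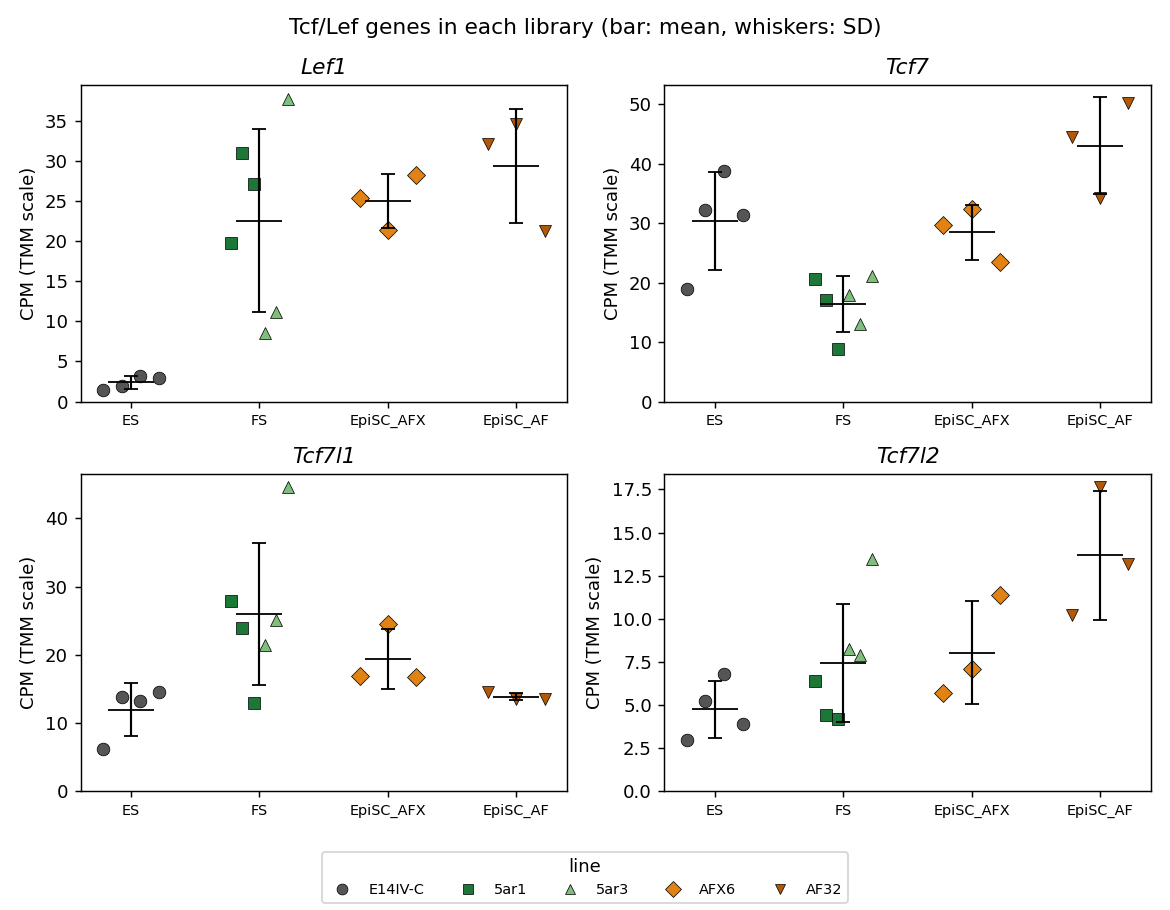
Level of each Tcf/Lef gene in CPM on the TMM scale (vertical axis) in the 4 culture groups (horizontal axis), with a point for each library, shaped by cell line, a bar for the mean and whiskers for the SD. Lef1 is at 1.45 to 3.23 CPM in the ES libraries and at 8.55 CPM or more in all others, while the highest value of Tcf7 in FS, 21.05 CPM, is below all EpiSC libraries.

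Within FS, Lef1 varied more than in any other group, with a mean of 22.6 ± 11.5 CPM (SD, n = 6). Line 5ar1 gave 19.8, 31.0 and 27.2 CPM at passages 10, 12 and 14. Line 5ar3 gave 8.55 and 11.2 CPM at passages 4 and 5 and 37.7 CPM at passage 12. The lowest and the highest FS values thus came from the same line. The log2 fold change of Lef1 between 5ar1 and 5ar3 was 0.44 (edgeR adjusted p = 0.610). Without the 5ar3 library of passage 12 it was 1.39 (edgeR adjusted p = 0.0175), and with passage as a covariate it was -0.027. With the same covariate Lef1 changed sign in FS against EpiSC_AF (0.081) and in EpiSC_AFX against EpiSC_AF (0.57), with adjusted p-values of 0.896 and 0.433 in edgeR. The passages of the groups overlap only in part.

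Tcf7 was lowest in FS cells. The ES libraries gave 19.0, 32.3, 38.8 and 31.4 CPM. The FS libraries had a lowest value of 8.90, a median of 17.5 and a highest value of 21.05 CPM. EpiSC_AFX gave 23.4, 29.6 and 32.3 CPM and EpiSC_AF gave 44.5, 34.3 and 50.3 CPM. Every FS library was below every EpiSC library, and FS overlapped ES only through ES replicate 1, at 19.0 CPM.

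Tcf7 was 1.85-fold lower in FS than in ES (log2 fold change -0.89, SE 0.23, edgeR adjusted p = 0.00244). The library scaling bears on this call. With total counts in place of TMM the median of all tested genes moved from 0.04 to 0.40, and Tcf7 gave -0.56 (edgeR adjusted p = 0.0910), or -0.95 relative to that median. Tcf7 was 2.61-fold lower in FS than in EpiSC_AF (-1.39, SE 0.24, edgeR adjusted p = 6.77e-04). It was the only one of the 4 genes called there in edgeR, against 16.6% of all tested genes. DESeq2 called 2, Tcf7 and Tcf7l1, and its share over all tested genes is not given here.

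In FS against EpiSC_AFX, where both media hold the tankyrase inhibitor, none of the 4 genes passed in edgeR, against 5.00% of all tested genes. 1 of the 4, Tcf7, had an unadjusted p under 0.05 there and was also called by DESeq2. Its log2 fold change was -0.79 (SE 0.24, edgeR adjusted p = 0.0723), and the DESeq2 adjusted p was 0.0389. The shares of all tested genes by an unadjusted p or by DESeq2 are not given here. No Tcf/Lef gene passed in EpiSC_AFX against EpiSC_AF by either tool, or had an unadjusted edgeR p under 0.05, against 4.26% of all tested genes in edgeR. There Tcf7 gave -0.60 (SE 0.29, edgeR adjusted p = 0.293), with all 3 EpiSC_AFX libraries below all 3 EpiSC_AF libraries. In a fit to these 2 groups alone the same difference had an edgeR adjusted p of 0.0438. The libraries of these groups did not overlap in Tcf7l1 either, which was higher in EpiSC_AFX.

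Tcf7 did not differ detectably between ES and either EpiSC group. Its log2 fold change was -0.10 in EpiSC_AFX against ES (95% interval -0.66 to 0.47) and 0.50 in EpiSC_AF against ES (-0.06 to 1.06). The first of these changed sign with total counts (0.086). From low to high the group means ran FS, EpiSC_AFX, ES and EpiSC_AF, and no 2 neighbours in that order differed at an adjusted p of 0.05 in edgeR.

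Many other genes of chromosome 11, which carries Tcf7, also differed in the AF32 line. In FS against EpiSC_AF, the 1396 tested genes of chromosome 11 had a median log2 fold change of -0.39, against 0.06 elsewhere, and 37.2% of them were called, against 15.01% elsewhere. The fold change of Tcf7 was -0.997 relative to that chromosome median. In EpiSC_AFX against EpiSC_AF the chromosome 11 median was -0.42, against 0.02 elsewhere, and Tcf7 was -0.17 relative to it. In FS against ES the chromosome median was -0.10, and Tcf7 was -0.79 relative to it. The part of the whole chromosome in the Tcf7 differences was not tested.

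Tcf7l1, the mainly repressing member, was highest in FS cells. It gave 6.22, 13.8, 13.2 and 14.5 CPM in ES. In FS the lowest, median and highest values were 12.8, 24.5 and 44.6 CPM. It gave 16.7, 16.9 and 24.5 CPM in EpiSC_AFX and 14.5, 13.6 and 13.5 CPM in EpiSC_AF. 5 of the 6 FS libraries were above all ES and EpiSC_AF libraries, and the exception, at 12.8 CPM, was the 5ar1 library of passage 14.

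Tcf7l1 was 2.17-fold higher in FS than in ES (log2 fold change 1.12, SE 0.28, edgeR adjusted p = 0.00246). Without ES replicate 1, the library with the high mt-Rnr2 share, the log2 fold change was 0.91 (edgeR adjusted p = 0.0102). Against EpiSC_AF it was 0.91 (SE 0.31, edgeR adjusted p = 0.0550). The separate FS lines gave 0.63 for 5ar1 and 1.14 for 5ar3 (edgeR adjusted p = 0.180 and 0.0191). The value with both lines passed in DESeq2 (adjusted p = 0.0234) and in edgeR without the 5ar1 library of passage 14 (1.05, adjusted p = 0.0124). EpiSC_AFX against ES gave 0.69 (SE 0.32, edgeR adjusted p = 0.0786), with every EpiSC_AFX library above every ES library, and FS against EpiSC_AFX gave 0.42 (95% interval -0.22 to 1.06). EpiSC_AFX against EpiSC_AF gave 0.48 (SE 0.35, edgeR adjusted p = 0.524), with every EpiSC_AFX library above every EpiSC_AF library. The group means ran ES, EpiSC_AF, EpiSC_AFX and FS from low to high, and no neighbours in that order differed at an adjusted p of 0.05 in edgeR.

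Tcf7l2 was highest in EpiSC_AF. Its values were 2.97, 5.24, 6.79 and 3.91 CPM in ES. In FS the lowest, median and highest were 4.16, 7.12 and 13.5 CPM. EpiSC_AFX gave 11.4, 5.68 and 7.05 CPM and EpiSC_AF gave 10.2, 17.6 and 13.2 CPM. All EpiSC_AF libraries were above all ES libraries, whereas FS and EpiSC_AFX overlapped both.

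Tcf7l2 was 2.88-fold higher in EpiSC_AF than in ES (log2 fold change 1.53, SE 0.38, edgeR adjusted p = 0.00247). The log2 fold change was 0.64 in FS against ES (SE 0.33, edgeR adjusted p = 0.101) and 0.76 in EpiSC_AFX against ES (SE 0.38, edgeR adjusted p = 0.102). In FS against EpiSC_AF it was -0.88 (SE 0.34, edgeR adjusted p = 0.0869). The FS value against ES passed in edgeR without FS replicate 3 (0.76, adjusted p = 0.0474) and with total counts (0.98, adjusted p = 0.0325). That against EpiSC_AF passed in edgeR without FS replicate 4 (-1.14, adjusted p = 0.0199). No neighbours in the order ES, FS, EpiSC_AFX and EpiSC_AF differed at an adjusted p of 0.05 in edgeR.

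The FS lines differed most in Tcf7l2. Line 5ar1 gave 6.38, 4.40 and 4.16 CPM, and line 5ar3 gave 13.5, 8.25 and 7.87 CPM, with no overlap. The log2 fold change of -0.99 (SE 0.34) had an unadjusted p of 0.00945 and an adjusted p of 0.122 in edgeR. None of the 4 genes passed between the lines in edgeR or in DESeq2, 1 of them had an unadjusted p under 0.05, and 3.88% of all tested genes passed in edgeR. The share of all tested genes with an unadjusted p under 0.05 is not given here. Set against ES on their own, 5ar3 and 5ar1 gave Tcf7l2 log2 fold changes of 1.06 and 0.062 (edgeR adjusted p = 0.00938 and 0.881). Against EpiSC_AF, 5ar3 alone gave -0.47 (edgeR adjusted p = 0.377) and 5ar1 alone -1.46 (edgeR adjusted p = 0.00774).

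**Figure D2:**
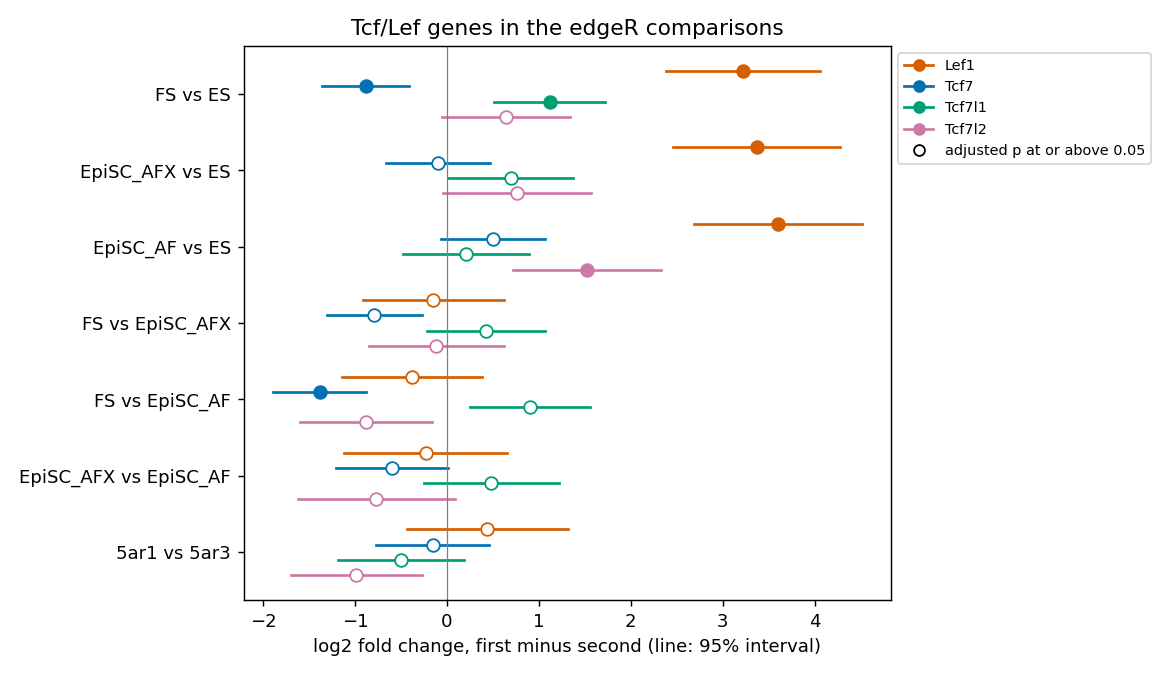
Log2 fold changes of the 4 genes (horizontal axis, first group minus second) in the 7 comparisons (vertical axis), with lines for 95% intervals and filled points for an edgeR adjusted p under 0.05. Lef1 lies between 3.22 and 3.60 in the comparisons with ES, and Tcf7 is the filled point furthest to the left, at -1.39 in FS against EpiSC_AF.

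Levels were then divided by transcript length, so that the 4 genes could be set against one another within a library. The length was the median over the basic coding transcripts of each gene, which was 3377.5 bases for Lef1, 2106.5 for Tcf7, 2465 for Tcf7l1 and 3102.5 for Tcf7l2. The sum of the 4 genes was 21.5 ± 5.98 CPM per kb in ES (SD, n = 4), 27.4 ± 8.84 in FS (n = 6), 31.4 ± 2.20 in EpiSC_AFX (n = 3) and 39.2 ± 1.22 in EpiSC_AF (n = 3). The shares and ratios that follow describe the libraries and were not tested.

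In ES cells Tcf7 dominated, with 67.3 ± 2.16% of the sum (SD, n = 4). Tcf7l1 held 22.3 ± 3.09%, Tcf7l2 7.08 ± 1.12% and Lef1 3.29 ± 0.61%. All 4 ES libraries had the order Tcf7, Tcf7l1, Tcf7l2 and Lef1 from high to low. Tcf7 was the highest member in every ES library under all 4 ways of treating length that were tried.

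In FS cells the family was spread more evenly. Tcf7l1 held 37.8 ± 6.31% (SD, n = 6), Tcf7 28.9 ± 6.09%, Lef1 24.5 ± 11.7% and Tcf7l2 8.74 ± 2.75%. Tcf7l1 was the highest member in 5 of the 6 FS libraries, and Lef1 in the 5ar1 library of passage 14. Which gene ranks first in FS rests on the length used. Tcf7l1 was highest in 2 of 6 libraries with the length of all exons combined, in 0 of 6 with the longest coding length and in 4 of 6 with no length scaling.

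The primed groups again had Tcf7 first, in all 3 libraries of each. In EpiSC_AFX it held 43.0 ± 5.08% (SD, n = 3), with 24.9 ± 3.86% for Tcf7l1, 23.8 ± 4.68% for Lef1 and 8.33 ± 3.40% for Tcf7l2. In EpiSC_AF it held 52.0 ± 8.40% (SD, n = 3), with 22.3 ± 5.86% for Lef1, 14.4 ± 0.57% for Tcf7l1 and 11.3 ± 3.46% for Tcf7l2. With no length scaling Tcf7 was first in 2 of the 3 libraries of each group and Lef1 in 1.

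**Figure D3:**
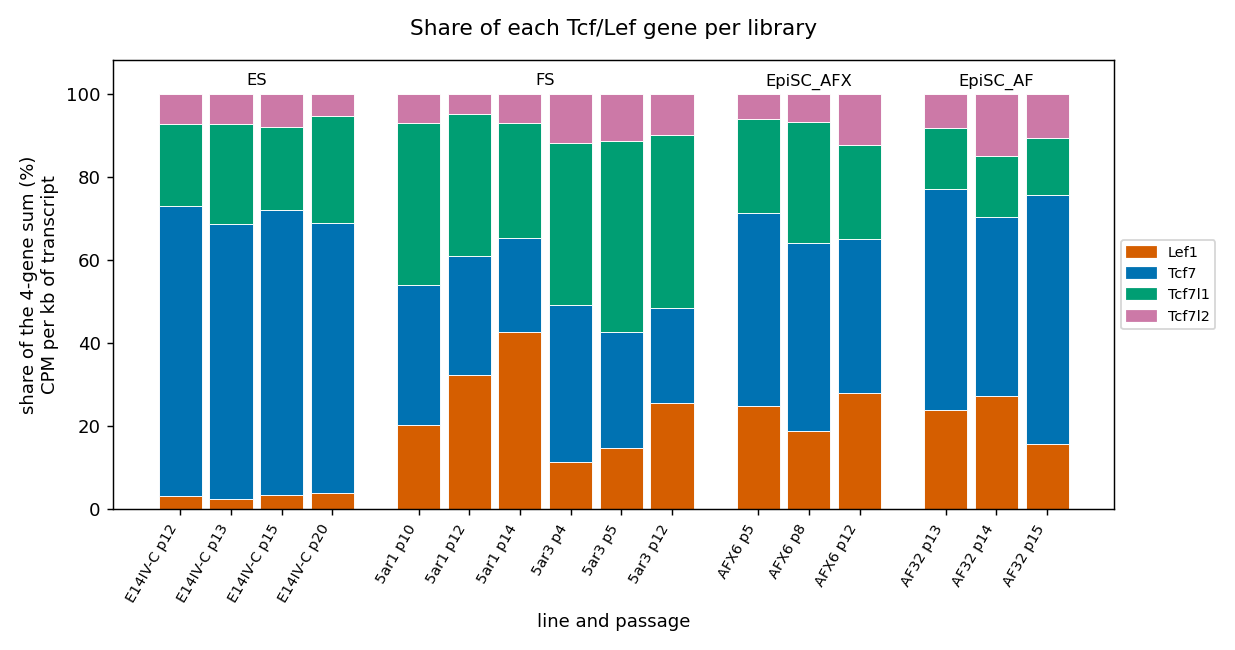
Share of each Tcf/Lef gene in the sum of the 4 (vertical axis, %, from CPM per kb of transcript) in each of the 16 libraries, ordered by group, line and passage along the horizontal axis. Tcf7 fills 65.0% to 69.8% of every ES library and 22.5% to 38.0% of the FS libraries, and Lef1 fills 2.42% to 3.84% in ES and 11.3% to 42.8% in FS.

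Differences of a ratio between groups depend neither on the length used nor on the library scaling, whereas the sign of a ratio does depend on the length. The log2 ratio of Tcf7 to Tcf7l1, an activating over a repressing member, was 1.60 ± 0.24 in ES (SD, n = 4) and -0.39 ± 0.32 in FS (n = 6). It was 0.79 ± 0.22 in EpiSC_AFX and 1.85 ± 0.28 in EpiSC_AF (n = 3 each). FS libraries ran from -0.86 to -0.03, EpiSC_AFX from 0.63 to 1.04, ES from 1.34 to 1.84 and EpiSC_AF from 1.56 to 2.13. This ratio kept FS apart from every other group and EpiSC_AFX apart from every other group, while ES and EpiSC_AF overlapped. On the log2 scale FS lay 2.00 below ES, 1.19 below EpiSC_AFX and 2.24 below EpiSC_AF. The differences from EpiSC_AF include whatever part of Tcf7 goes with chromosome 11 in that line.

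The log2 ratio of Lef1 to Tcf7 was -4.38 ± 0.29 in ES (SD, n = 4), -0.36 ± 0.96 in FS (n = 6), -0.86 ± 0.43 in EpiSC_AFX (n = 3) and -1.24 ± 0.63 in EpiSC_AF (n = 3). All non-naive libraries were above all ES libraries, by 4.02 on average in FS, and the 3 non-naive groups overlapped. Lef1 to Tcf7l1 ran from -2.77 ± 0.38 in ES through -0.75 ± 0.92 in FS and -0.07 ± 0.51 in EpiSC_AFX to 0.60 ± 0.36 in EpiSC_AF (log2 ratio, SD), with every other library above ES.

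The log2 ratio of Tcf7l1 to Tcf7l2 was 1.66 ± 0.42 in ES (SD, n = 4), 2.16 ± 0.38 in FS (n = 6) and 1.64 ± 0.66 in EpiSC_AFX (n = 3), all overlapping, and 0.38 ± 0.44 in EpiSC_AF (n = 3), below every library of the other groups. Tcf7 to Tcf7l2 was higher in ES, at 3.26 ± 0.21, than in every library of the other groups, whose means were 1.77 in FS, 2.43 in EpiSC_AFX and 2.23 in EpiSC_AF.

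**Figure D4:**
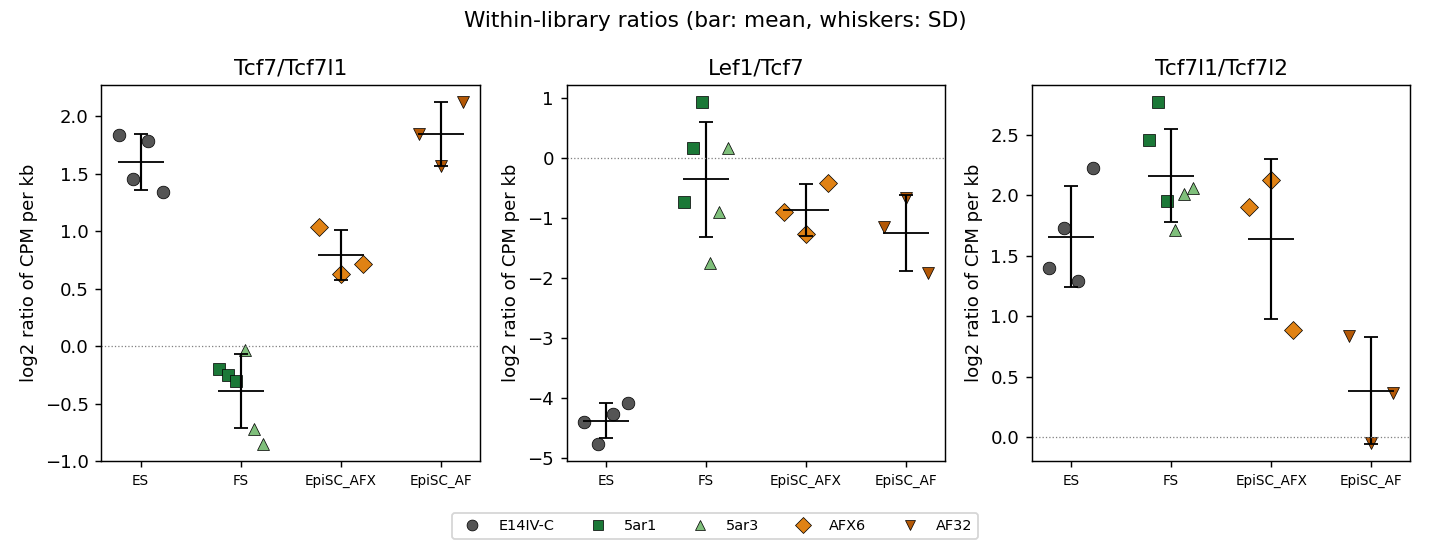
Within-library log2 ratios of CPM per kb (vertical axes) for Tcf7/Tcf7l1, Lef1/Tcf7 and Tcf7l1/Tcf7l2 in the 4 groups, with a point for each library, a bar for the mean and whiskers for the SD. With the transcript lengths used, which set the zero point, Tcf7/Tcf7l1 is below 0 in all 6 FS libraries and above 0.6 in all others, and Lef1/Tcf7 is below -4 in the ES libraries alone.

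The other genes of the pathway were counted from lists of ligands, receptors and the rest. In FS against ES, 32.9% of all tested genes were higher and 29.9% lower in edgeR. Of 12 tested Wnt ligand genes (19 listed), 7 were higher in FS and 2 lower, and in a fit to these 2 groups alone 4 were higher and none lower. The share over all tested genes in that fit is not given here. The count of lower ligand genes, Wnt3a and Wnt5b, also fell to 1 or 0 without any one of 5 of the libraries. These ligand genes were at low levels. The means of the 7 higher genes were at most 0.90 CPM in ES and ran from 0.34 to 2.48 CPM in FS. Wnt3a went from 0.14 to 0.01 CPM and Wnt5b from 2.89 to 1.70 CPM. Of 18 receptor genes, among them the Frizzled receptors, 11 were higher and 3 lower. In FS against EpiSC_AF, 7 of the 12 ligand genes were lower and 0 higher, against 8.81% and 7.84% of all tested genes. Wnt8a, a ligand of the primitive streak, had the largest fall among them, from 30.4 ± 18.3 CPM in EpiSC_AF (SD, n = 3) to 0.50 ± 0.48 CPM in FS (n = 6), a difference of -5.92 on the log2 scale (SE 0.81, edgeR adjusted p = 1.12e-04).

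The RNA of Ctnnb1, which encodes β-catenin, was abundant in every group and did not pass the test against ES. The β-catenin protein was not measured. The RNA level was 980 ± 143 CPM in ES (SD, n = 4), 870 ± 126 in FS (n = 6), 788 ± 39.3 in EpiSC_AFX (n = 3) and 776 ± 83.3 in EpiSC_AF (n = 3). The log2 fold changes against ES were -0.17 in FS, -0.32 in EpiSC_AFX and -0.34 in EpiSC_AF, with edgeR adjusted p-values of 0.242, 0.0855 and 0.0652. Without ES replicate 4 the EpiSC values were -0.39 and -0.41, and both passed (edgeR adjusted p = 0.0486 and 0.0373). With total counts the FS value was 0.20 (edgeR adjusted p = 0.171). In FS against ES, 4 of 16 β-catenin turnover genes were higher and 5 lower, against 32.9% and 29.9% of all tested genes. With total counts 8 were higher and 1 lower, but that scaling also moved the median of all tested genes from 0.04 to 0.40.

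Among 9 coactivator genes, Bcl9, which bridges β-catenin to Pygopus proteins, was the only one higher in FS than in ES, by 1.40 on the log2 scale (SE 0.18, edgeR adjusted p = 3.68e-06). It was also higher in EpiSC_AFX (1.08) and in EpiSC_AF (0.95) than in ES, with edgeR adjusted p-values of 2.55e-04 and 7.95e-04. With total counts 3 coactivator genes were higher in FS, and without the 5ar1 library of passage 14 the number was 2. Pygo1 was the only one lower, a call that was lost without any one of 6 of the libraries. In the main fit 32.9% of all tested genes were higher and 29.9% lower in FS than in ES. Total counts moved the median log2 fold change of all tested genes from 0.04 to 0.40. The shares over all tested genes in these other fits are not given here.

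The list of 14 corepressors and other antagonists of Tcf/Lef activity held genes that rose and genes that fell. In FS against ES, 5 were higher (Tle1, Ctbp1, Ctnnbip1, Cby1 and Nlk) and 4 lower (Tle2, Aes, Tle6 and Hdac1). These counts are near the shares over all tested genes, 32.9% higher and 29.9% lower. With total counts 2 of the 14 were lower, and that scaling moved the median of all tested genes to 0.40. Among the 5 higher genes of the list, Ctnnbip1 and Cby1 bind β-catenin and Nlk is a kinase. Tle1, a Groucho corepressor, was higher than in ES by log2 fold changes of 0.54 in FS, 0.53 in EpiSC_AFX and 0.64 in EpiSC_AF (edgeR adjusted p = 0.00194, 0.00775 and 0.00196). Ctbp1, another corepressor, was higher by 0.57, 0.50 and 0.56 (edgeR adjusted p = 0.00193, 0.0157 and 0.00744). Without EpiSC_AFX replicate 3, the EpiSC_AFX values of Tle1 and Ctbp1 were 0.43 and 0.46, with edgeR adjusted p-values of 0.0512 and 0.0506. Ctnnbip1, which binds β-catenin and blocks its contact with Tcf/Lef proteins, was higher in all 3 groups, at 1.01, 0.84 and 0.86.

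Aes, also named Tle5, is a short family member that lacks the domains of a full corepressor. It fell from 96.3 ± 15.1 CPM in ES (SD, n = 4) to 17.7 ± 4.11 in FS (n = 6), 32.1 ± 2.29 in EpiSC_AFX (n = 3) and 33.9 ± 2.83 in EpiSC_AF (n = 3). Its log2 fold change in FS was -2.44 against ES, -0.86 against EpiSC_AFX and -0.94 against EpiSC_AF (edgeR adjusted p = 6.37e-10, 0.00691 and 9.62e-04), with no overlap between the libraries in any of these. With total counts the value against EpiSC_AFX was -0.73 (edgeR adjusted p = 0.0768). Tle6 was at 4.22 ± 1.08 CPM in ES and 0.14 ± 0.11 CPM in FS. Tle3 was higher in FS than in EpiSC_AF by 0.96 (SE 0.26, edgeR adjusted p = 0.0167), with overlapping libraries. That call was lost without EpiSC_AF replicate 1 (0.89, edgeR adjusted p = 0.0868), without replicate 3 (0.86, edgeR adjusted p = 0.0869) and in a fit to these groups alone (0.96, edgeR adjusted p = 0.0575).

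Most Wnt target genes were lower in FS than in ES. Of 16 tested, 9 were lower and 4 higher in FS than in ES, against 29.9% and 32.9% of all tested genes. Their median log2 fold change was -1.59, against 0.04 over all tested genes. Axin2, a feedback inhibitor and the usual readout of β-catenin activity, was at 65.9 ± 16.3 CPM in ES (SD, n = 4), 16.3 ± 5.63 in EpiSC_AF (n = 3), 5.72 ± 1.51 in FS (n = 6) and 3.95 ± 1.45 in EpiSC_AFX (n = 3). Its log2 fold change against ES was -3.53 in FS, -4.06 in EpiSC_AFX and -2.01 in EpiSC_AF (edgeR adjusted p = 1.62e-09, 2.28e-08 and 2.08e-05). In EpiSC_AFX against ES 8 targets were lower and 4 higher, against 26.2% and 28.5% of all tested genes, and in EpiSC_AF against ES 5 were lower and 6 higher, against 27.0% and 29.7%. Cd44, a cell-surface receptor for hyaluronan, was the target with the largest rise in FS, from 0.42 ± 0.18 to 13.5 ± 5.57 CPM.

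Every target called against EpiSC_AF, in FS or in EpiSC_AFX, was lower in the medium with the tankyrase inhibitor in edgeR. Of the 6 streak and endoderm markers, 6 were also lower in FS and 3 in EpiSC_AFX than in EpiSC_AF, and T is in both lists. The part of streak or endoderm cells in the target counts was not tested. In FS against EpiSC_AF, 7 of 16 targets were lower and 0 higher, against 8.81% and 7.84% of all tested genes. Axin2 differed by -1.52 (SE 0.26, edgeR adjusted p = 5.44e-04). With 1 mean per FS line, 12 of the 16 were lower, but the share over all tested genes in that fit is not given here. Lgr5, a receptor for R-spondins, fell from 16.7 ± 6.65 CPM in EpiSC_AF (SD, n = 3) to 0.49 ± 0.40 CPM in FS (n = 6). In EpiSC_AFX against EpiSC_AF, 3 of 16 were lower, Axin2 (-2.05, SE 0.32, edgeR adjusted p = 0.00107), Sp5 and T, and 0 were higher, against 2.83% and 1.43% of all tested genes. Without EpiSC_AFX replicate 1, and in DESeq2, the number of lower targets was 5, again with no share over all tested genes given. Axin2 and Tcf7 lie on the same chromosome, so the chromosome 11 values given for Tcf7 stand beside these too. Lef1, a Wnt target itself, was not in the list and showed no detectable difference between these groups.

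All 10 genes of naive pluripotency were lower in FS than in ES, against 29.9% of all tested genes. Among the known targets of Tcf7l1, Esrrb went from 638 ± 76.5 CPM in ES (SD, n = 4) to 1.11 ± 0.80 in FS (n = 6), and Nanog from 827 ± 86.4 to 125.9 ± 26.6 CPM, a difference of -2.72 on the log2 scale (SE 0.19, edgeR adjusted p = 1.30e-09). Esrrb was at 0.88 and 0.66 CPM and Nanog at 178 and 215 CPM in EpiSC_AFX and EpiSC_AF. Tcf7l1 did not pass the main test against ES in either group. In EpiSC_AFX its log2 fold change was 0.69, with every library above ES. A fit to only the groups compared gave 0.72 there (edgeR adjusted p = 0.0493). The part of Tcf7l1 in the levels of these genes was not tested.

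**Figure D5:**
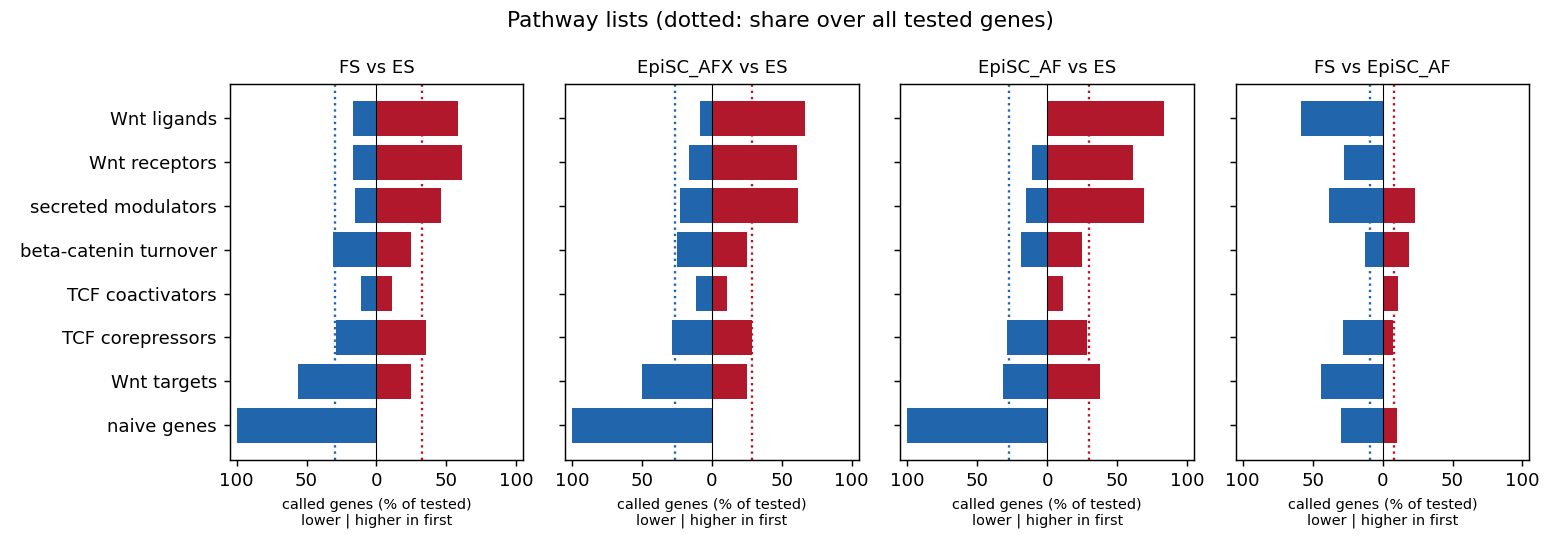
Percentage of the tested genes of 8 lists called higher (right) or lower (left) in the first group (horizontal axis), by list (vertical axis), in 4 comparisons, with dotted lines for the same share over all tested genes. Wnt targets and naive genes extend to the left in FS against ES, and 7 of 12 ligand genes and 7 of 16 targets are lower in FS than in EpiSC_AF.

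The genes whose log2 CPM followed each member most closely were taken from 11335 genes with a mean of at least 5 CPM, by Pearson correlation over the 16 libraries. These points share their libraries and their groups, so the correlations are descriptions. For Lef1 the closest were Has2, a hyaluronan synthase, Spred3 and Ptpn9, each with r = 0.97. Has2 rose from 0.46 ± 0.29 CPM in ES (SD, n = 4) to 14.9 ± 4.51 in FS (n = 6), and was at 26.9 and 28.8 CPM in EpiSC_AFX and EpiSC_AF. Cep55, which acts in the last step of cell division, had the lowest r with Lef1, -0.98, and fell from 148 ± 33.7 CPM in ES to between 33.4 and 35.0 CPM in the other groups.

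For Tcf7l1 the closest genes were Cry2, a circadian repressor, and Arid1a and Smarcd1, which encode subunits of the BAF chromatin remodelling complex, each with r = 0.93, and Rpl23 had the lowest, -0.95. Arid1a was at 70.9 ± 19.4 CPM in ES (SD, n = 4), 125 ± 40.1 in FS (n = 6), 110.7 ± 9.29 in EpiSC_AFX (n = 3) and 92.0 ± 14.5 in EpiSC_AF (n = 3). Its group means had the order of Tcf7l1, but it was picked for its correlation with Tcf7l1. Smarcd1, picked in the same way, had a lower mean in EpiSC_AF (56.3 CPM) than in ES (63.0 CPM). For Tcf7l2 the closest genes were Vezf1 (r = 0.91), Bbs1 (0.88) and Alg8 (0.87), and Depdc7 had the lowest (-0.91). For Tcf7 they were Sec24a (0.93), Dag1 (0.89) and Pik3cb (0.87), and Gm9824 had the lowest (-0.86). Between members, Lef1 had r = 0.58 with Tcf7l2, 0.54 with Tcf7l1 and -0.07 with Tcf7.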

How the data were processed

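The authors deposited raw counts per gene for bulk RNA-seq libraries. Per the labels' protocols, cells were lysed in Trizol, RNA was purified on PureLink columns and a NEXTflex directional kit was used for the libraries. The submitters' processing notes name Trim Galore, TopHat2 2.1.0, featureCounts 1.5.0 and mm10, and the annotation release and strand setting are not given in the sources used here. Another 6 columns matched no sample and were not used.

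Counts of 16 libraries were fitted in edgeR 4.0.16 (R 4.3.3) with filterByExpr, TMM scaling, 1 mean per group and a robust quasi-likelihood test, and 18555 genes were tested. All groups shared the estimate of the spread of a gene. A call is a p under 0.05 after Benjamini-Hochberg adjustment over all tested genes of a comparison. The FS lines were compared in a fit with 1 mean per line. CPM are on the TMM scale. Gene coordinates and lengths came from GENCODE mouse release 21, in which 33860 of 34042 identifiers were found. Start windows came from RefSeq (GRCm38.p6), in which all 4 genes matched. The procedure was tested on simulated data.

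The genes and lists were chosen with earlier results of these data known. Genes eligible for naming were the 4 members, all Tle and Ctbp genes, Ctnnb1, Axin2, Esrrb and Nanog, the called gene with the largest change in each direction of a list and comparison, and the 3 genes most and 1 least correlated with each member. Which of these are described, and Aes, Sp5, T, Wnt3a, Wnt5b, Cby1, Nlk, Hdac1 and Arid1a among them, was chosen after their values were seen. The alternatives were DESeq2 1.42.0 and its size factors, total counts, other low-count filters, 1 mean per line, passage as a covariate, only the groups compared, single FS lines, and leaving out each library. The transcript length used, and the 2 other lengths tried, were chosen after seeing the data.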

Additional observations from a re-analysis of the deposited data

Results flagged for a closer look

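The Tcf7l1 level of ES replicate 1, 6.22 CPM, lay apart from the other ES libraries, which were at 13.2 to 14.5 CPM. The CPM and the share of each member were searched for such gaps in ES and in FS, 16 sets of values in all, and chance alone marks about 1 in 20. The same library had the highest share of mt-Rnr2 counts, and its part in this value was not tested. Without it Tcf7l1 was still higher in FS than in ES, by 0.91 on the log2 scale (edgeR adjusted p = 0.0102). ES replicate 1 was also the lowest ES library for Lef1 (1.45 CPM), Tcf7 (19.0 CPM) and Tcf7l2 (2.97 CPM), so its low level was not particular to Tcf7l1. In FS, replicate 4 (line 5ar3, passage 12) was the highest library for Lef1 (37.7 CPM), Tcf7 (21.05 CPM), Tcf7l1 (44.6 CPM) and Tcf7l2 (13.5 CPM).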

How the results depend on the processing

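The Lef1 rises against ES, the fall of Tcf7 in FS against EpiSC_AF, the rise of Tcf7l1 in FS against ES and the rise of Tcf7l2 in EpiSC_AF against ES kept their direction and their edgeR or DESeq2 call under every alternative run. For Lef1 in FS against ES the values ran from 2.99 to 3.89, and for Tcf7 in FS against EpiSC_AF from -1.53 to -1.25. With total counts only, the median of all tested genes moved to 0.40 in FS against ES, 0.25 in EpiSC_AFX against ES, 0.29 in EpiSC_AF against ES, 0.16 in FS against EpiSC_AFX and 0.13 in FS against EpiSC_AF. Under that scaling Tcf7 gave -0.56 in FS against ES, no longer called, and 0.086 in EpiSC_AFX against ES, a change of sign. Tcf7l2 gave 0.98 in FS against ES, now called, and 0.014 in FS against EpiSC_AFX, a change of sign. Ctnnb1 in FS against ES gave 0.20, also a change of sign. In DESeq2, Tcf7 in FS against EpiSC_AFX (-0.79) and Tcf7l1 in FS against EpiSC_AF (0.91) were called. In a fit to only the groups compared, Tcf7 in EpiSC_AFX against EpiSC_AF (-0.60) and Tcf7l1 in EpiSC_AFX against ES (0.72) were called. With 1 mean per line, Tcf7l1 (0.88) and Tcf7l2 (-0.96) in FS against EpiSC_AF were called. With line 5ar1 alone as FS, Lef1 against EpiSC_AFX turned to 0.046 and Tcf7l2 against EpiSC_AF was called at -1.46. With line 5ar3 alone, Tcf7l1 against EpiSC_AF (1.14) and Tcf7l2 against ES (1.06) were called, where 5ar1 alone gave 0.63 and 0.062, neither called, and Tcf7l2 against EpiSC_AFX turned to 0.31. With passage as a covariate, Lef1 turned to 0.081 in FS against EpiSC_AF, to 0.57 in EpiSC_AFX against EpiSC_AF and to -0.027 in 5ar1 against 5ar3. The cause of these changes was not tested.

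Leaving out each library in turn gave Lef1 values of -0.36 to 0.022 in FS against EpiSC_AFX and 0.085 to 1.39 in 5ar1 against 5ar3. It gave Tcf7 values of -0.26 to 0.036 in EpiSC_AFX against ES and -0.43 to 0.13 in 5ar1 against 5ar3, and Tcf7l1 values of 0.68 to 1.05 in FS against EpiSC_AF. For Tcf7l2 the values were 0.38 to 0.86 in FS against ES, -0.37 to 0.22 in FS against EpiSC_AFX and -1.14 to -0.66 in FS against EpiSC_AF.

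The shares within the family depend on the length used. With the length of all exons combined, Lef1 held 1.76% in ES, 14.8% in EpiSC_AFX and 13.7% in EpiSC_AF. Tcf7 then held 75.2% in ES, 38.8% in FS, 55.3% in EpiSC_AFX and 65.6% in EpiSC_AF, and Tcf7l2 3.49%, 5.17%, 4.80% and 6.39% in the same order. With the longest coding length, Lef1 held 4.48% in ES, 31.3% in EpiSC_AFX and 28.4% in EpiSC_AF, Tcf7 75.0% in ES and Tcf7l2 5.80% in ES. Tcf7l1 then held 14.7% in ES, 25.8% in FS, 15.9% in EpiSC_AFX and 8.83% in EpiSC_AF. With no length scaling, Lef1 held 4.83% in ES, 31.1% in EpiSC_AFX and 29.4% in EpiSC_AF, Tcf7 61.7% in ES, 35.1% in EpiSC_AFX and 43.1% in EpiSC_AF, and Tcf7l2 9.56% in ES. A coding length from RefSeq proteins was not run. No paired analysis was possible because the labels give passages of different lines and no number that pairs libraries across groups.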

Other observations

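The genes that followed Tcf7 most closely over the 16 libraries came largely from its own chromosome. Of the 50 genes with the highest Pearson correlation with Tcf7, 25 lay on chromosome 11, against 7.98% of the 11335 eligible genes, and Sec24a, the closest, was one of them. For Lef1, 3 of the 50 closest genes lay on its chromosome 3 (4.91% of eligible genes), for Tcf7l1 2 of 50 on chromosome 6 (4.58%) and for Tcf7l2 2 of 50 on chromosome 19 (3.27%). These counts were made after the chromosome 11 values were seen, and the libraries of a line share whatever sets that line apart.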
